A study of Rattus norvegicus with 18 samples.

Results

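NF-kB is the transcription factor family through which tumour necrosis factor, interleukin-1 and pattern recognition receptors switch on inflammatory genes, and 10 of its genes were followed here through 18 RNA-seq libraries of infected rat heart muscle cells. The 10 genes were chosen by name for their roles, with earlier results of these data known. They were the subunit genes Nfkb1, Nfkb2, Rela and Relb and the IkB family genes Nfkbia, Nfkbie and Nfkbiz. The others were the ubiquitin-editing enzyme gene Tnfaip3 and the induced genes Tnfaip2 and Birc3. All 10 were found by symbol among the 19880 genes of the table, and all 10 were among the 14870 genes that passed the filter on low counts. The name given to the set holds only in part for the last members. Tnfaip2 was first known as a gene induced by tumour necrosis factor and Birc3 encodes a ubiquitin ligase, so neither is an inhibitor of the IkB kind.

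The cells were ventricular cardiomyocytes of Sprague-Dawley rats on postnatal day 2, from which adherent non-cardiomyocytes had been removed by plating for 1 h. All 6 groups shared exposure to phenylephrine (PE, an alpha-1 adrenergic agonist that induces hypertrophic growth) at 20 µM for 24 h and infection with an adenovirus. The virus carried a short open reading frame (ad-sORF6, ad-sORF7 or ad-sORF8) in 3 groups, and the other 3 groups received the control virus of each, with 3 libraries per group. No uninfected and no PE-free cells were analysed here, so every value is from infected, stimulated cells. Nothing in the labels says whether the 3 libraries of a group are separate cultures. If they are not, the spread that the p-values rest on is technical.

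In resting cells most NF-kB dimers are held in the cytoplasm by IkB proteins, of which IkB-alpha (Nfkbia) and IkB-epsilon (Nfkbie) are classical members. Stimuli activate the IKK kinase complex, IkB is phosphorylated and degraded, and dimers such as p50 with RelA enter the nucleus, while a second, non-canonical branch processes the Nfkb2 precursor to p52, which pairs with RelB. Several of the genes switched on are themselves brakes: new IkB-alpha recaptures the dimers, and A20 (Tnfaip3) removes or edits ubiquitin chains on signalling proteins. Transcripts of Nfkbia, Tnfaip3, Nfkb2, Relb and Birc3 are therefore widely used as readouts of the pathway, whereas Rela is commonly expressed at a steady level.

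The table places these genes, in Rnor_6.0 coordinates, as follows. Nfkb1 (gene 81736) lies on chromosome 2 at 240773520 to 240890053 and Nfkbiz (304005) on chromosome 11 at 47243342 to 47286855. Chromosome 1 holds Tnfaip3 (683206) at 14399663 to 14417098, Relb (100360982) at 80517081 to 80545019, Rela (309165) at 220992770 to 221003249 and Nfkb2 (309452) at 266050607 to 266059661. Nfkbia (25493) lies on chromosome 6 at 76267227 to 76270828, with Tnfaip2 (299339) on the same chromosome at 135890273 to 135909658. Nfkbie (316241) lies on chromosome 9 at 17823226 to 17835281 and Birc3 (78971) on chromosome 8 at 6014178 to 6076828. Of these genes 5 overlap another gene of the table, and no source used here states whether reads were counted by strand. The Relb span lies inside that of Clasrp over 27939 bases, Birc3 shares 22648 bases with Birc2 and Nfkbie 3634 bases with Slc35b2, all on the same strand. On opposite strands by the table, Nfkb2 shares 331 bases with Psd and Nfkb1 shares 1619 with LOC103691715. How reads were divided between such partners is uncertain, so the values of the partners that passed the filter are given beside the members' calls below.

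Promoter sequences from RefSeq (build GRCr8, the 250 bases before the annotated start) matched 8 of the 10 genes; Relb and Birc3 had no entry. NF-kB dimers bind short sites with a G-rich and a C-rich end, so the windows were searched on both strands for GGG and CC set apart by 5 bases of any kind, and for its stricter form, the kB consensus, whose matches are all also matches of the first. The loose form was found in 7 of the 8 windows, against 42.3% of all 33469 promoters of the table. The kB consensus was found in 5 of the 8, against 3.54% of all promoters. Below are the windows of the genes that held the consensus and changed with sORF6, since these are the members the results turn on. Each runs 5′ to 3′ in the direction of its gene, with consensus matches in capitals. Nfkb2 is at chr1:255108124-255108373 on the plus strand, Nfkbia at chr6:78597073-78597322 on the minus strand, Nfkbiz at chr11:58251471-58251720 on the plus strand and Tnfaip3 at chr1:15543980-15544229 on the minus strand.
Nfkb2: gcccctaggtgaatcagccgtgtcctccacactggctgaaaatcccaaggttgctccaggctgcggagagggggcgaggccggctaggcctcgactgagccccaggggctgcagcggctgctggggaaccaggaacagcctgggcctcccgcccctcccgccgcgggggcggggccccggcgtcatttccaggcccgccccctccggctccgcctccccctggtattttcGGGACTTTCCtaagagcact
Nfkbia: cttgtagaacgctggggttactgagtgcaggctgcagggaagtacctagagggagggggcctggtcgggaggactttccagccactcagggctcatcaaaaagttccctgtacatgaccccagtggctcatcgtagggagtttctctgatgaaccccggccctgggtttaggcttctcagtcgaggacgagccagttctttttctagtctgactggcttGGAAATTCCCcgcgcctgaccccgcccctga
Nfkbiz: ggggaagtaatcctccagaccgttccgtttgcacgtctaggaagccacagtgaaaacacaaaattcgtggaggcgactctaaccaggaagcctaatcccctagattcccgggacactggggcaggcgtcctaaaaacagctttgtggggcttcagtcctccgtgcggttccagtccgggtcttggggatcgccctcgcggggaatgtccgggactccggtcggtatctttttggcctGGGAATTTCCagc
Tnfaip3: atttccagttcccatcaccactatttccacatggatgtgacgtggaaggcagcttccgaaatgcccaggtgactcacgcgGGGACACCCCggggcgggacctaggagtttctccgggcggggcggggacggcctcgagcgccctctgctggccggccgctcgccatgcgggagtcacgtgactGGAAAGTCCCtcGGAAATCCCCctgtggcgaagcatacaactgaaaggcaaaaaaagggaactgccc
In these windows the matches in Nfkb2, Nfkbiz and Nfkbia began 20, 13 and 31 bases before the start, the one in Nfkbia reading GGAAATTCCC, the opposite strand's form. Tnfaip3 held 3 matches, beginning 170, 67 and 55 bases before the start. The window of Nfkbie held GGGGGATTCC, 164 bases before the start, and those of Nfkb1, Rela and Tnfaip2 held no consensus match. RefSeq places Nfkb1 on the minus strand of GRCr8 and the deposited table on the plus strand of Rnor_6.0; its window is that of RefSeq. These are matches of letters only, and no binding was measured.

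Depth was from 15697177 to 17658137 estimated counts per library and differed by experiment. The sORF8 libraries and their controls had 1.57e+07 to 1.63e+07 counts, and all other libraries 1.73e+07 to 1.77e+07. By a chi-square over genes, the second sORF6 control library and the first sORF7 control library stood further from their group partners than any other library did. The chi-square per degree of freedom of the pairs that hold them was 6.49 to 11.4, against 2.74 to 4.11 for all other pairs. The root mean square deviation of log2 CPM from the group mean did not set them apart, at 0.173 and 0.178. The third sORF6 control library was at 0.173 and sORF7 replicate 2 at 0.177. All 10 cardiomyocyte markers were detected, with a summed level of 38850 to 66952 CPM (normalised counts scaled to library size) per library. The 15 macrophage and leukocyte markers summed to 132 to 190 CPM. The most abundant were Adgre1 (44.8 to 88.9 CPM) and Lyz2 (17.9 to 41.6 CPM). Cd163, a macrophage receptor, was at 0 in 8 of the 18 libraries, C1qb in 2, and C1qa and C1qc in 1 each. The other markers of this list were detected in every library. Fibroblast markers summed to 10483 to 12654 CPM, those of smooth muscle to 962 to 1085 CPM and those of endothelium to 70.5 to 88.4 CPM. In such bulk samples, fewer cells of a type and less RNA per cell cannot be told apart.

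Under control virus the subunit genes of the canonical branch were the most abundant of the 10. Levels between genes are given in FPKM, which is per transcript length, as mean ± SD over the 9 control libraries. Nfkb1, the p105 precursor of p50, stood at 27.8 ± 3.23 FPKM and Rela at 27.7 ± 1.58 FPKM, with overlapping ranges. Nfkbia followed at 18.6 ± 1.31 FPKM, below Rela in all 9 libraries without overlap of their ranges. Nfkbiz, which encodes the nuclear IkB-zeta that acts on promoters and does not hold dimers in the cytoplasm, stood at 12.5 ± 4.29 FPKM, overlapped with Nfkbia and had the widest range of the 10, from 7.86 to 18.6 FPKM. Tnfaip2 (11.1 ± 0.630 FPKM) and Nfkb2 (10.8 ± 0.620 FPKM) overlapped with each other and with Nfkbiz. Relb, at 8.75 ± 0.539 FPKM, overlapped with Nfkb2 and was above Nfkbie at 6.92 ± 0.669 FPKM in every library, and the ranges of these neighbours did not meet. Tnfaip3 stood at 5.16 ± 0.322 FPKM, a range that overlapped that of Nfkbie although Nfkbie was higher in each of the 9 libraries. Birc3 was the lowest at 1.88 ± 0.224 FPKM, at percentile 24.2 of the genes tested, against percentile 79.3 for Nfkb1. Its estimated counts were 39.7 to 119 per library, so its values are the least precise of the set. The plot of FPKM by control virus shows this order and the spread of Nfkbiz.

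**Figure D1:**
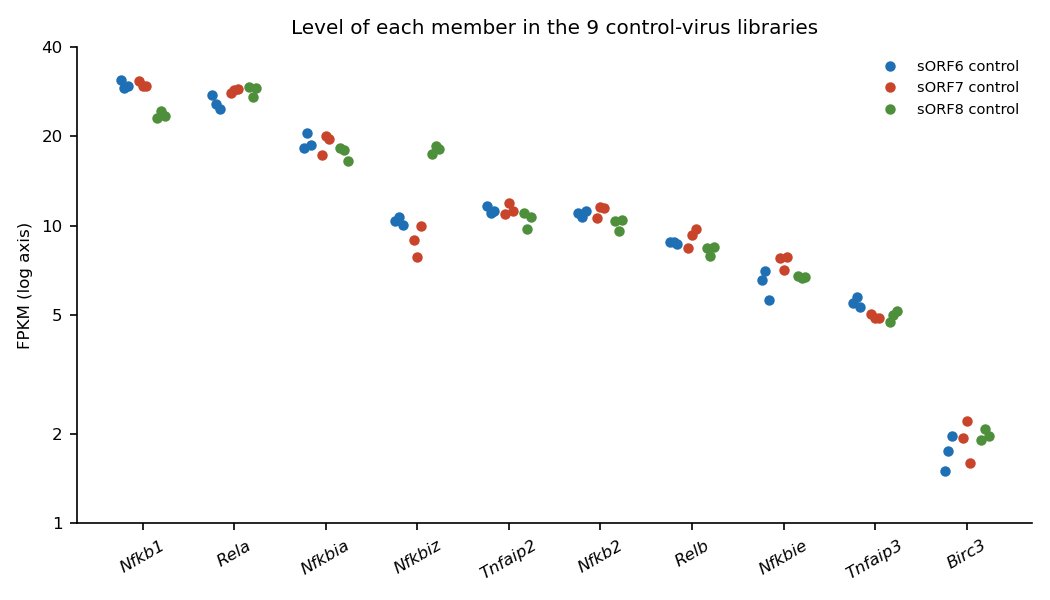
FPKM (log axis) of each of the 10 genes in the 9 control-virus libraries, 1 point per library, coloured by the sORF whose control it is. Nfkb1 and Rela lie highest and Birc3 lowest, and for Nfkbiz the sORF8 controls lie above the other 6 libraries.

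The starting level was not the same under the 3 control viruses for every gene. A joint F test across the control groups called 3 of the 10, where 38.4% of all genes tested were called, so such shifts were common in these libraries. Nfkbiz showed the widest gap: 31.8, 32.6 and 30.5 CPM in the sORF6 controls and 27.1, 24.0 and 30.2 CPM in the sORF7 controls, against 51.5, 55.1 and 53.7 CPM in the sORF8 controls (edgeR, adjusted p = 1.71e-09). Nfkb1 went the other way, at 126, 118 and 118 CPM and 123, 120.1 and 118 CPM in the first 2 control groups and at 90.2, 95.9 and 91.9 CPM in the sORF8 controls (adjusted p = 8.91e-07). In both genes the sORF8 controls overlapped with neither other control group. This also held for Nfkb2 and, of the genes not called, for Relb and Tnfaip2. Nfkb2 differed less, at 31.8 ± 1.70 CPM in the sORF8 controls against 35.5 ± 0.677 and 36.6 ± 1.73 CPM (SD, n = 3; adjusted p = 0.0115). The other 7 genes were not called, with adjusted p from 0.0687 for Tnfaip2 to 0.644 for Birc3. Each sORF was therefore compared with its own control only.

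With sORF6, Nfkbia, Nfkbiz, Tnfaip3, Birc3 and Nfkb2 fell, and no change of Rela was detected. The test called 5 of the 10 genes lower and none higher, where 3.85% of all genes tested were called, 2.88% lower and 0.968% higher. No member was higher at an unadjusted p under 0.05 either, nor called higher by DESeq2 or limma. All 10 log2 fold changes were below 0, with a median of -0.24 against 0.00 for all genes. In 7 genes each sORF6 library lay below each control library, a pattern that 10.6% of all genes showed. The plot of every library shows these gaps beside the other experiments.

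**Figure D2:**
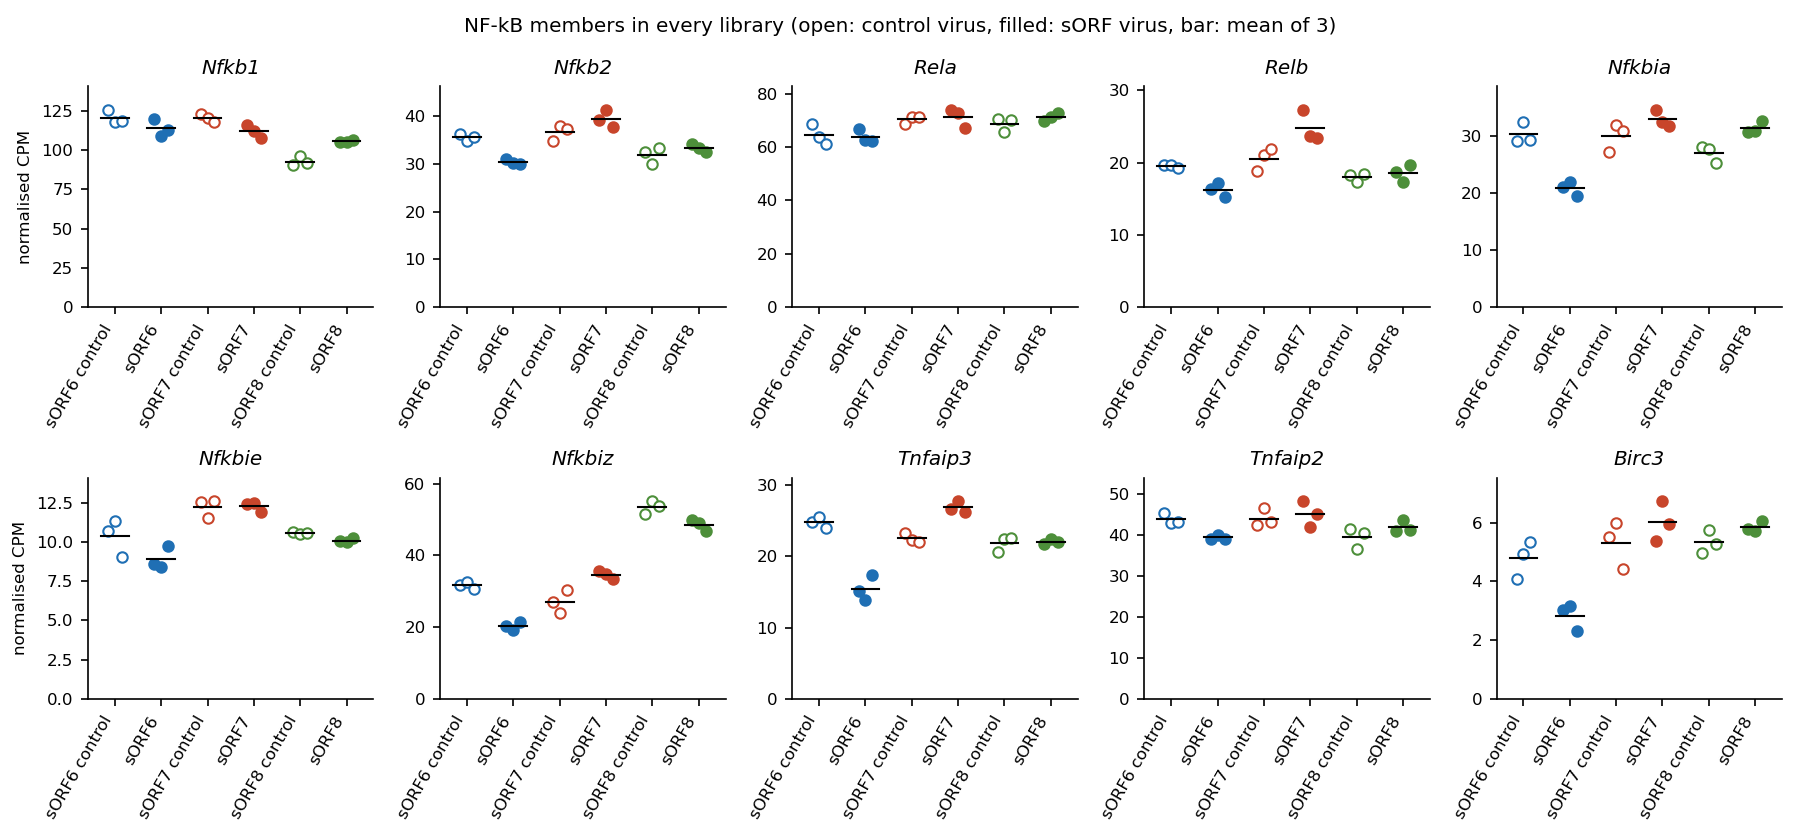
Normalised CPM of the 10 genes in all 18 libraries (open points, control virus; filled points, sORF virus; bars, mean of 3 libraries), each axis starting at 0. The 3 sORF6 libraries lie below their controls in Nfkbia, Nfkbiz, Tnfaip3 and Birc3, and Rela lies between 61.0 and 74.0 CPM throughout.

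Among the IkB family genes, Nfkbia was at 29.0, 32.3 and 29.3 CPM under the control virus and at 21.1, 21.8 and 19.5 CPM with sORF6. All sORF6 libraries lay well below the lowest control. This was a 1.45-fold fall (log2 fold change -0.54 ± 0.07 SE, quasi-likelihood test of edgeR, adjusted over all genes by the Benjamini-Hochberg method, adjusted p = 5.86e-05). Nfkbiz, whose product is needed for a secondary set of inflammatory genes, stood at 31.8, 32.6 and 30.5 CPM in controls and at 20.4, 19.1 and 21.4 CPM with sORF6. The groups were again apart, by 1.56-fold (-0.64 ± 0.07, adjusted p = 5.78e-06). Nfkbie, the third of these genes, was at 10.7, 11.4 and 9.06 CPM in controls and 8.61, 8.41 and 9.75 CPM with sORF6. The Nfkbie values overlapped (-0.22 ± 0.09, adjusted p = 0.248). Its same-strand neighbour Slc35b2 was at -0.06 ± 0.05.

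Tnfaip3, the A20 gene, was at 24.8, 25.5 and 23.9 CPM in controls and at 15.1, 13.9 and 17.3 CPM with sORF6. It fell 1.60-fold with no overlap (-0.68 ± 0.07, adjusted p = 2.32e-06). Birc3 encodes cIAP2, a ubiquitin ligase recruited to tumour necrosis factor receptors. It stood at 4.08, 4.92 and 5.35 CPM in controls and 3.02, 3.15 and 2.31 CPM with sORF6 (1.69-fold lower, -0.76 ± 0.16, adjusted p = 0.00802). Every sORF6 library was below every control, but the call depended on the third sORF6 library, the lowest: without it the log2 fold change was -0.63 with adjusted p = 0.0628, and in a fit of only the 6 libraries of the experiment adjusted p = 0.0897. On the log2(FPKM + 1) scale its change was -0.48. Birc2, the neighbour that shares bases with Birc3, was at -0.05 ± 0.05 (adjusted p = 0.693). Tnfaip2 was at 45.5, 42.9 and 43.2 CPM in controls and 39.2, 40.003 and 39.1 CPM with sORF6, lower in each library but not called (-0.15 ± 0.06, adjusted p = 0.195).

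Of the 4 subunit genes, Nfkb2 was the one called. It stood at 36.1, 34.8 and 35.5 CPM in controls and 30.9, 30.2 and 29.96 CPM with sORF6, a fall of 1.17-fold without overlap (-0.22 ± 0.05, adjusted p = 0.0195). This call was lost when sORF6 replicate 2 (0.0696), sORF6 replicate 3 (0.0866), control replicate 1 (0.0785) or control replicate 3 (0.0509) was left out, with DESeq2 (0.0649) and with only the 6 libraries (0.0842), all given as adjusted p. Psd, which shares bases with Nfkb2, was at -0.03 ± 0.41. Relb, the partner of p52, was at 19.7, 19.7 and 19.3 CPM in controls and 16.3, 17.2 and 15.2 CPM with sORF6. Its groups did not overlap, yet the test did not call it (-0.27 ± 0.08, adjusted p = 0.0632), and Clasrp, which spans it, was at 0.08 ± 0.06. It was called without sORF7 replicate 1 (0.0429) or without sORF7 control replicate 1 (0.0459), libraries outside the comparison, and by limma on log2(FPKM + 0.1) (0.0451). Nfkb1 was at 114 ± 5.67 CPM with sORF6 against 121 ± 4.45 CPM (-0.08 ± 0.04, adjusted p = 0.382). Rela was at 68.8, 63.6 and 61.0 CPM in controls and 66.7, 62.6 and 62.5 CPM with sORF6, overlapping, with a log2 fold change of -0.01 and a 95% interval of -0.12 to 0.10.

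Nfkbia and Tnfaip3 were also set per length against Rela. As no change of Rela was detected, these ratios restate the falls given above and add no separate support. Nfkbie, which was not called, was not set against Rela. The FPKM ratio of Nfkbia to Rela was 0.663, 0.799 and 0.755 in the control libraries and 0.496, 0.549 and 0.491 with sORF6. The ratio of Tnfaip3 to Rela was 0.199, 0.225 and 0.215 in controls and 0.124, 0.122 and 0.156 with sORF6. Both ratios lay lower in each sORF6 library than in any control library, and they were not tested further.

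Other transcripts moved beside these genes. The summed level of 30 interferon-stimulated genes was 363 to 421 CPM in the sORF6 libraries and 1179 to 1710 CPM in their controls, and 28 of the 30 were called lower, with a median of -2.31. The 15 macrophage and leukocyte markers summed to 142 to 158 CPM with sORF6 and 161 to 186 CPM in controls. Adgre1 was the most abundant of them, at 44.8 to 88.9 CPM over the 18 libraries. The list median was -0.16. Csf1r (0.29), Mrc1 (0.26), Lyz2 (0.23), C1qa (1.64) and Fcer1g (0.06) lay above 0, and the other tested markers lay below. Of the 12 tested, Adgre1 (-0.61 ± 0.10, adjusted p = 0.000511) and Itgam (-0.83 ± 0.17, adjusted p = 0.00712), both macrophage surface molecules, were called lower; none was called higher by edgeR (3 at an unadjusted p under 0.05) or DESeq2, and 1 by limma on log2(FPKM + 1). Summed cardiomyocyte markers, 63464 to 66952 CPM against 60573 to 65344 CPM, overlapped between the groups. Of these 10 markers, Myh7 (0.25 ± 0.06) and Mybpc3 (0.13 ± 0.03) were called higher and Myh6 (-0.32 ± 0.07) lower. Of 10 fibroblast markers, 2 were called higher and 1 lower, with a list median of 0.07. The part of interferon signalling or of leukocyte RNA in the fall of the NF-kB genes was not tested. Without the 2 control libraries that stood apart, the same count of 5 genes was called lower, with Nfkbia at -0.49 and Tnfaip3 at -0.66.

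With sORF7, 3 of the 10 genes rose and none fell in the edgeR test, where 7.77% of all genes tested were called, 4.12% higher and 3.66% lower. At an unadjusted p under 0.05, 1 member was lower, and DESeq2 and limma called none lower. The 3 were Nfkbiz, Relb and Tnfaip3. The median log2 fold change over the 10 was 0.12 against 0.00 for all genes, and the groups did not overlap for the 3 called genes, a pattern of 11.7% of all genes.

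Nfkbiz was at 27.1, 24.0 and 30.2 CPM in controls and 35.5, 34.7 and 33.4 CPM with sORF7. Every sORF7 library was higher, by 1.27-fold on average (0.35 ± 0.07, adjusted p = 0.00263). Tnfaip3 stood at 23.3, 22.3 and 22.1 CPM in controls and 26.6, 27.7 and 26.3 CPM with sORF7, and Relb at 18.8, 21.0 and 21.9 CPM against 27.3, 23.7 and 23.4 CPM. Both rose about as much, Tnfaip3 1.19-fold (0.25 ± 0.07, adjusted p = 0.0224) and Relb 1.21-fold (0.27 ± 0.07, adjusted p = 0.0274). Clasrp, the neighbour of Relb, was at -0.10 ± 0.06 (adjusted p = 0.449). These 2 calls were close to the threshold. Tnfaip3 lost its call without sORF7 replicate 1 (adjusted p = 0.0598) or 2 (0.0870), without control replicate 2 (0.0685) or 3 (0.0742), and with only the 6 libraries (0.0514). Relb lost it without sORF7 replicate 1 (0.168), without control replicate 1 (0.122) or 2 (0.0580), and with only the 6 libraries (0.108). Nfkbiz kept its call in every fit, with adjusted p of at most 0.0322.

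The other 7 genes were not called with sORF7. Nfkbia was at 32.8 ± 1.502 CPM against 29.9 ± 2.49 CPM in controls (0.14 ± 0.07, adjusted p = 0.279), and its libraries overlapped. Nfkb2 stood at 39.3 ± 1.84 against 36.6 ± 1.73 CPM (0.10 ± 0.05, adjusted p = 0.298). Birc3 was at 6.02 ± 0.680 against 5.31 ± 0.815 CPM (0.18 ± 0.15, adjusted p = 0.558). These 3 were the positive values next in size, while Nfkbie (0.01 ± 0.09), Tnfaip2 (0.04 ± 0.06) and Rela (0.02, 95% interval -0.09 to 0.12) lay near 0. Nfkb1 was the only member below 0, at 116, 112 and 108 CPM with sORF7 against 123, 120.1 and 118 CPM, lower in each library but not called (-0.10 ± 0.04, adjusted p = 0.171). Of all genes, 11.3% were likewise lower without overlap.

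The surrounding lists moved with sORF7 too. Summed interferon-stimulated genes stood at 3605 to 4295 CPM with sORF7 and 1865 to 2154 CPM in controls, and 29 of 30 were called higher with a median of 0.97. Macrophage and leukocyte markers summed to 132 to 141 CPM against 137 to 154 CPM, with a list median of -0.05. Cd14 (0.38), Itgam (0.23), Cd68 (0.16), Tyrobp (0.12) and Aif1 (0.12) lay above 0, and the other tested markers lay below. Csf1r (-0.49 ± 0.14, adjusted p = 0.0353) and Lyz2 (-0.36 ± 0.10, adjusted p = 0.0362) were called lower by edgeR. At an unadjusted p under 0.05, 1 marker was higher, but none was in the adjusted tests of edgeR, DESeq2 or limma. Summed cardiomyocyte markers were lower, at 51483 to 53205 CPM against 58044 to 61187 CPM, and 3 of the 10 (Actn2, Myh7 and Mybpc3) were called lower. Of 10 fibroblast markers, Pdgfra (-0.30), Col3a1 (-0.21) and Postn (-0.16) were called lower, with a list median of -0.12, and summed levels were 10801 to 11203 CPM against 10828 to 12097 CPM. The part of these transcripts in the rise of Nfkbiz, Relb and Tnfaip3 was not tested. Without the 2 control libraries that stood apart, 2 of the 3 calls held, and Relb was at 0.22 with adjusted p = 0.113.

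With sORF8, Nfkb1 was the one member that passed the test. The test called 1 of the 10 higher and none lower (1 lower at an unadjusted p under 0.05, none by DESeq2 or limma). Of all genes 3.75% were called, 2.03% higher and 1.72% lower, so a single call is not a result about the set. Nfkb1 was at 105, 105 and 106 CPM with sORF8 against 90.2, 95.9 and 91.9 CPM under its control virus (1.14-fold, 0.19 ± 0.04, adjusted p = 0.0192). The groups did not overlap. Its call ended without any of the sORF8 libraries or without control replicate 1 or 3, in 5 of the 18 fits that left out 1 library, with the largest adjusted p of 0.0920 at 0.17 without control replicate 1. The sORF8 controls were also those with the lowest Nfkb1 of the 3 control groups, and 105.6 ± 0.580 CPM lies below the 121 ± 4.45 and 120.4 ± 2.52 CPM of the other controls.

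Nfkbia was at 30.7, 30.8 and 32.6 CPM with sORF8 and 28.01, 27.6 and 25.3 CPM in controls. Each sORF8 library was higher, though the test did not call it (0.22 ± 0.07, adjusted p = 0.0958); it was called after correction for gene length (adjusted p = 0.0354) and without the 2 control libraries of the other experiments that stood apart (0.0348). Nfkbiz stood at 49.9, 49.1 and 46.7 CPM against 51.5, 55.1 and 53.7 CPM, lower in each library and not called (-0.14 ± 0.06, adjusted p = 0.278). In all, 2 of the 10 genes lay higher without overlap (Nfkb1 and Nfkbia) and 2 lower (Nfkbiz and Nfkbie). Of all genes, 11.6% and 12.9% showed these patterns, so the separations are not read as a result about the set. Tnfaip3 (0.01 ± 0.07), Relb (0.05 ± 0.08), Nfkb2 (0.06 ± 0.05), Nfkbie (-0.07 ± 0.09), Tnfaip2 (0.09 ± 0.06), Birc3 (0.13 ± 0.15) and Rela (0.05, 95% interval -0.06 to 0.16) were not called. Here the interferon-stimulated genes overlapped between groups, at 471 to 724 CPM against 510 to 617 CPM in sum, and none of the 30 was called by edgeR, DESeq2 or limma, with 4 higher and 1 lower at an unadjusted p under 0.05. Summed cardiomyocyte markers were 46337 to 48458 CPM against 38850 to 39206 CPM, with 5 of the 10 called higher. Macrophage and leukocyte markers summed to 153 to 190 CPM against 152 to 161 CPM, overlapping, with a list median of 0.05. None was called by edgeR or limma, while DESeq2 called 1 higher, and 2 were higher at an unadjusted p under 0.05. Of 10 fibroblast markers none was called by edgeR, DESeq2 or limma. The part of these transcripts in the changes with sORF8 was not tested.

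The plot of log2 fold changes sets the 3 responses side by side. Because each sORF has its own control, whether 2 responses differ was tested as a difference of log2 fold changes, in the same fit. The response to sORF6 was lower than that to sORF7 in 6 of the 10 genes and higher in none, where 11.2% of all genes were called, 6.27% lower and 4.88% higher. The difference was -0.99 ± 0.10 in Nfkbiz (adjusted p = 8.47e-07), -0.93 ± 0.10 in Tnfaip3 (1.40e-06) and -0.67 ± 0.10 in Nfkbia (0.000104). It was -0.54 ± 0.11 in Relb (0.00204), -0.94 ± 0.22 in Birc3 (0.00786) and -0.32 ± 0.07 in Nfkb2 (0.00703). All 6 were called in each of the 18 fits that left out 1 library and in the other alternatives. The responses of Nfkb1 (0.02 ± 0.06, adjusted p = 0.880), Rela (-0.03, 0.868), Nfkbie (-0.22 ± 0.13, 0.304) and Tnfaip2 (-0.19 ± 0.08, 0.156) were not called different.

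**Figure D3:**
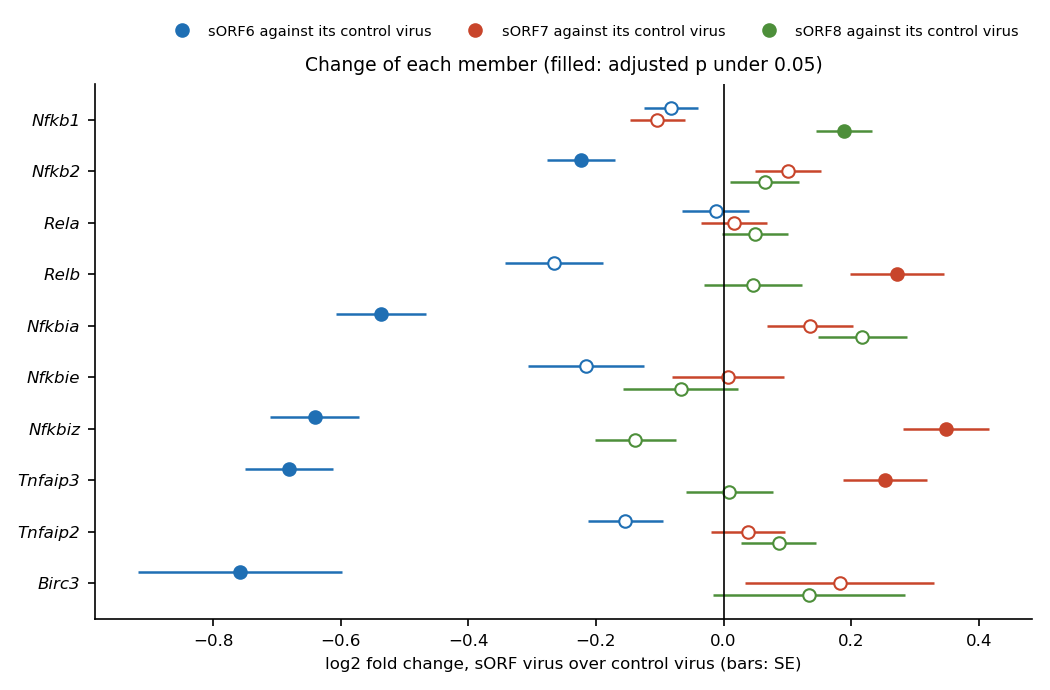
Log2 fold change of each of the 10 genes, sORF virus over its control virus, with bars of 1 SE; filled points had an adjusted p under 0.05. The sORF6 points of Nfkbia, Nfkbiz, Tnfaip3 and Birc3 lie between -0.54 and -0.76, while the sORF7 points of these genes lie between 0.14 and 0.35.

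Against the response to sORF8, that to sORF6 was lower in 6 genes and higher in none, where 3.69% of all genes were called, 2.82% lower and 0.868% higher. These were Nfkbia (-0.76 ± 0.10, adjusted p = 8.82e-05), Tnfaip3 (-0.69 ± 0.10, 0.000173), Nfkbiz (-0.50 ± 0.09, 0.00298), Nfkb1 (-0.27 ± 0.06, 0.0139), Birc3 (-0.89 ± 0.22, 0.0258) and Nfkb2 (-0.29 ± 0.08, 0.0390). The last 2 were fragile. Nfkb2 lost its call in 11 of 18 fits that left out 1 library: any of the sORF6 or sORF8 libraries, sORF6 control replicates 1 and 3, sORF8 control replicates 1 and 2, or sORF7 replicate 1, with the largest adjusted p of 0.112 without sORF8 control replicate 2. It was also lost with DESeq2 (0.129), with no filter on low counts (0.0584) and with limma on log2(FPKM + 1) (0.0516). Birc3 lost its call in 6 of 18, without replicate 3 of sORF6 or its control or replicates 1 and 3 of sORF8 or its control, with the largest of 0.0837 without sORF6 replicate 3. Birc3 was also not called without both control libraries that stood apart (0.0513), and its difference was -0.55 on the log2(FPKM + 1) scale. The responses to sORF7 and sORF8 differed in 2 genes. Nfkb1 was lower with sORF7 (-0.29 ± 0.06, adjusted p = 0.00528) and Nfkbiz higher (0.49 ± 0.09, adjusted p = 0.00254), where 7.72% of all genes were called, 3.92% lower and 3.80% higher. Relb (0.23 ± 0.11, adjusted p = 0.223) and Tnfaip3 (0.24 ± 0.09, adjusted p = 0.130), called with sORF7 and not with sORF8, were not called different between these responses.

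The rest of the pathway was read from lists by role, and the plot of list members shows each gene. Over the 3 sORF comparisons, the 7 NF-kB lists had 22 cases in which edgeR called no gene in a direction. DESeq2 called none in any of these cases, and at an unadjusted p under 0.05 they held 0 to 4 genes. List medians stand beside a median of 0.00 over all genes in each comparison. Counts of called genes stand beside these shares of all genes: with sORF6, 2.88% lower and 0.968% higher. The shares were 4.12% higher and 3.66% lower with sORF7, and 2.03% higher and 1.72% lower with sORF8. Of the ligands, 5 of the 10 measured passed the filter; with sORF6, 4 of these 5 fell and none rose, with a median of -2.13. Tnf, which encodes tumour necrosis factor, went from 1.67 ± 0.201 to 0.349 ± 0.10 CPM (-2.23 ± 0.29, adjusted p = 4.29e-05) and Il1b, interleukin-1 beta, from 2.82 ± 0.301 to 0.638 ± 0.199 CPM (-2.13 ± 0.22, adjusted p = 3.48e-06). On the log2(FPKM + 1) scale, which compresses low levels, these changes were -0.71 for Tnf and -1.09 for Il1b and were still called by limma. The other 2 were Il1a and Il18. With sORF7, 2 of 5 rose, Tnf to 4.83 ± 0.813 from 1.76 ± 0.122 CPM (1.46 ± 0.21, adjusted p = 0.000231) and Il1b to 4.38 ± 0.624 from 2.61 ± 0.344 CPM (0.75 ± 0.18, adjusted p = 0.0142). On the log2(FPKM + 1) scale the rise of Tnf was 0.93. With sORF8, 1 of 5 rose, Il1b (0.89 ± 0.19, adjusted p = 0.00930). These are low levels, and the rise of Il1b with sORF7 lost its call without sORF7 replicate 2 (adjusted p = 0.0748) and without its control replicate 3.

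**Figure D4:**
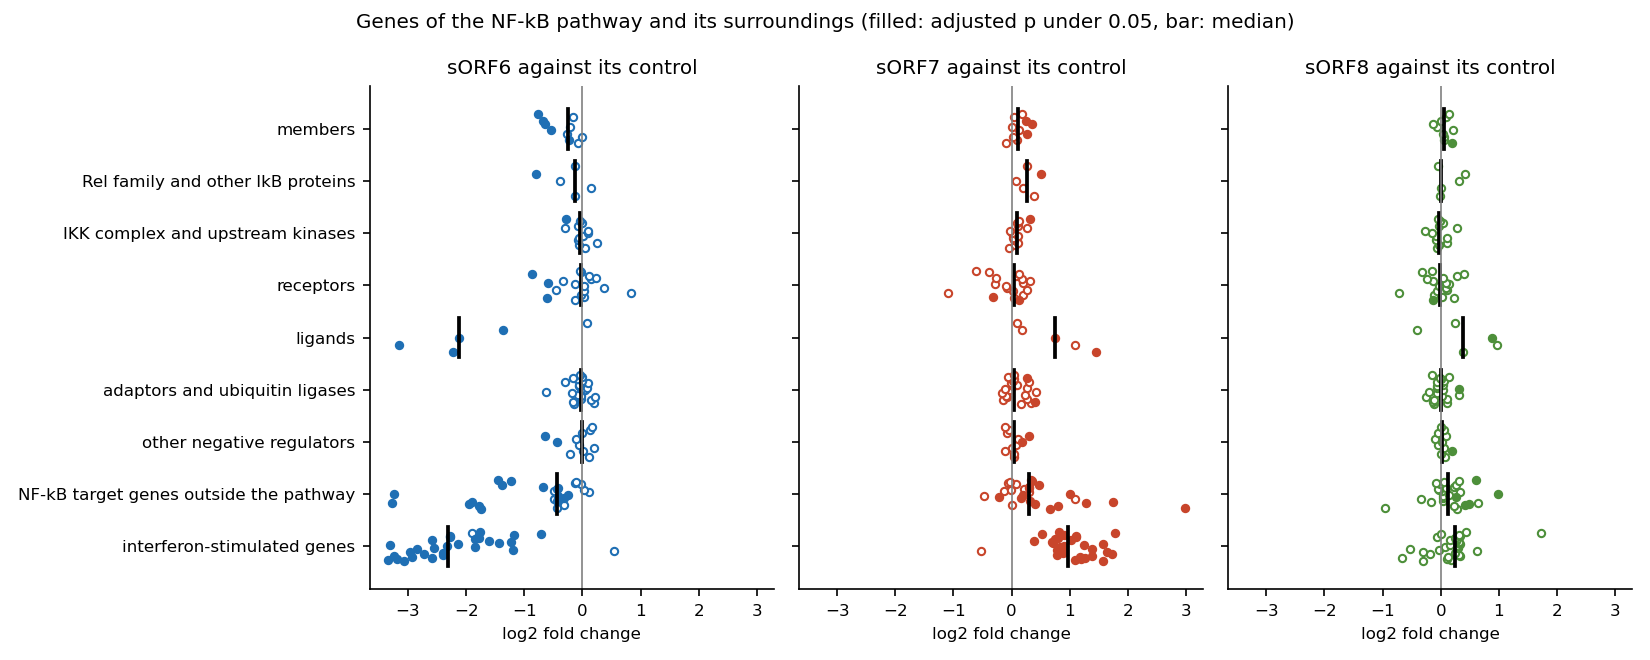
Log2 fold change of every tested gene of the NF-kB lists and of the interferon-stimulated genes, for sORF6, sORF7 and sORF8 against their control viruses; filled points had an adjusted p under 0.05 and bars are medians. The medians of ligands, NF-kB targets and interferon-stimulated genes lie to the left with sORF6 and to the right with sORF7, with some single genes on the other side. Receptors, kinases and adaptors centre near 0.

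Receptors, kinases and adaptors had medians between -0.04 and 0.10; among all genes, 2.88% were called lower with sORF6, 4.12% higher with sORF7 and 2.03% higher with sORF8. Of 18 receptors, 3 fell and none rose with sORF6, with a median of -0.03: Tnfrsf1b, a receptor of tumour necrosis factor (-0.62 ± 0.11, adjusted p = 0.00141), Tlr2 (-0.60 ± 0.12, adjusted p = 0.00568) and Tlr7, both Toll-like receptors. With sORF7, Tnfrsf1a rose (0.13 ± 0.03, adjusted p = 0.0283) and Il1r1, the interleukin-1 receptor, fell (-0.32 ± 0.04, adjusted p = 4.77e-05), with a median of 0.03. With sORF8 only Tnfrsf1a was called, lower (-0.13 ± 0.03, adjusted p = 0.0352), with a median of -0.01. For sORF7 the Tnfrsf1a call ended without sORF7 replicate 1 or 2 or control replicate 1 or 3 (largest adjusted p = 0.120, without sORF7 replicate 1). For sORF8 it ended without sORF8 replicate 1 or 2, any of its controls or sORF6 replicate 3 (largest adjusted p = 0.158, without sORF8 replicate 2). With no filter on low counts neither was called (0.0554 and 0.0719), nor was the sORF7 change without both control libraries that stood apart (0.0513). Among 13 kinases of the IKK complex and upstream of it, Ripk2, a kinase of the NOD receptors, was the only gene called with sORF6 (-0.28 ± 0.06, adjusted p = 0.00958) and with sORF7 (0.32 ± 0.06, adjusted p = 0.00149), and none was called with sORF8; the medians were -0.04, 0.10 and -0.03. For sORF6 the Ripk2 call ended without sORF6 replicate 3 and without control replicate 1 (adjusted p = 0.0667). Of 22 adaptors and ubiquitin ligases, none was called with sORF6. With sORF7, Myd88, the adaptor of Toll-like and interleukin-1 receptors (0.40 ± 0.07, adjusted p = 0.00160), and Peli1 (0.27 ± 0.07, adjusted p = 0.0164) rose. With sORF8, Traf3 rose (0.31 ± 0.07, adjusted p = 0.0135); the medians of this list were -0.03, 0.05 and 0.00. The Peli1 call ended without sORF7 replicate 2 or 3 or control replicate 2 (largest adjusted p = 0.0858, without the last). The Traf3 call ended without replicate 2 or 3 of sORF8 or of its control (largest adjusted p = 0.0766, without control replicate 3).

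Among 5 further Rel and IkB family genes, Bcl3, an atypical nuclear IkB that pairs with p50 and p52 homodimers, was the only one called. It went from 6.80 ± 0.866 to 3.89 ± 0.770 CPM with sORF6 (-0.80 ± 0.14, adjusted p = 0.00136) and from 6.48 ± 0.293 to 9.25 ± 0.515 CPM with sORF7 (0.51 ± 0.13, adjusted p = 0.0202). The sORF7 call ended without sORF7 replicate 1 (adjusted p = 0.0727) or 3, control replicate 1, or both control libraries that stood apart (0.0691), and the sORF6 call with only the 6 libraries of the experiment (0.0542). The medians of this list were -0.13, 0.27 and 0.01 for sORF6, sORF7 and sORF8. Of 11 other negative regulators tested, 2 fell and none rose with sORF6, at a median of -0.01. These were Zc3h12a, an RNase that degrades cytokine mRNAs, from 32.8 ± 0.918 to 21.0 ± 0.542 CPM (-0.64 ± 0.07, adjusted p = 2.35e-06), and Irak3, an inhibitory member of the IRAK family (-0.44 ± 0.05, adjusted p = 3.13e-05). With sORF7 both rose, Zc3h12a by 0.30 ± 0.06 (adjusted p = 0.00441) and Irak3 by 0.18 ± 0.05 (adjusted p = 0.0402), at a list median of 0.04. The Irak3 call with sORF7 ended in 11 of 18 fits that left out 1 library, with the largest adjusted p of 0.188 without sORF7 replicate 1. These were replicates 1 and 3 of sORF7 and of its control, all 3 of sORF6 and of the sORF8 control, and sORF8 replicate 2. It also ended with DESeq2 (0.0804), no filter on low counts (0.0620) and only the 6 libraries (0.175). With sORF8, Tnip1, which binds A20, was the one called (0.20 ± 0.04, adjusted p = 0.00667), at a median of 0.02.

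The last NF-kB list held targets outside the pathway. Of 26 tested, 15 fell and none rose with sORF6 (median -0.44). With sORF7, 13 rose and 1 fell (median 0.31), and with sORF8, 5 rose and none fell (median 0.12). Among all genes, 2.88% were called lower with sORF6, 4.12% higher and 3.66% lower with sORF7, and 2.03% higher with sORF8. The single fall with sORF7 is near that share and is not a result about the list. With sORF6, Lcn2, the secreted iron-binding protein lipocalin-2, fell from 298 ± 36.0 to 114 ± 18.3 CPM (-1.39 ± 0.09, adjusted p = 2.19e-08). Ccl2, a chemokine that draws monocytes, fell from 58.0 ± 1.24 to 17.3 ± 4.001 CPM (-1.75 ± 0.11, adjusted p = 2.19e-08). With sORF7, the chemokine gene Cxcl10 rose from 28.03 ± 2.16 to 94.4 ± 11.2 CPM (1.75 ± 0.13, adjusted p = 3.57e-07) and Cx3cl1 rose by 0.33 ± 0.05 (adjusted p = 0.000240), while Vcam1, an adhesion molecule, was the one that fell (-0.21 ± 0.06, adjusted p = 0.0435). The Vcam1 call ended in 10 of 18 fits that left out 1 library, with the largest adjusted p of 0.173 without sORF7 control replicate 2. These were all 3 of sORF7, control replicates 2 and 3, replicate 1 of sORF6 and of its control, sORF8 replicates 1 and 2 and the sORF8 control replicate 3. It also ended with DESeq2 size factors (0.0524), DESeq2 (0.137), no filter (0.0687), limma on log2(FPKM + 1) (0.10) and on log2(FPKM + 0.1) (0.105), and with only the 6 libraries (0.121). With sORF8, Cxcl1 (0.48 ± 0.11, adjusted p = 0.0170) and Nos2, the inducible nitric oxide synthase (0.99 ± 0.24, adjusted p = 0.0247), were among those that rose. Each lost its call without sORF8 replicate 1 or 2 or control replicate 2 or 3, with the largest adjusted p of 0.0931 without control replicate 3 for Cxcl1 and 0.122 without control replicate 2 for Nos2, which was also not called by limma on log2(FPKM + 0.1) (0.0604). Several of these targets, Cxcl10 among them, are also induced by interferon, and the lists do not separate the 2 inputs. In the interferon list itself, Oas1b (-2.39 ± 0.15) and Usp18 (-3.34 ± 0.22) had the smallest p with sORF6, and Oasl (1.74 ± 0.13) and Isg15 (1.57 ± 0.15) with sORF7.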

How the data were processed

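RNA sequencing of 18 libraries (6 groups of 3) was used; group and replicate number come from the sample titles, and each column used belongs to 1 sample. The table deposited by the authors lists mRNA genes, with an estimated count and an FPKM value per gene and library, per the file headers. The submitters' processing notes name HISAT2 2.0.4, RSEM 1.2.12, DESeq2 1.4.5 and build Rnor_6.0, without roles. The deposited FPKM values follow from the counts: over 1534 well-covered genes, the length implied by count, FPKM and column total varied by a median of 0.0705% between libraries. The deposited fold changes and q-values were not used here.

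Estimated counts were rounded to whole numbers, filtered with filterByExpr and scaled by TMM. They were tested with edgeR 4.0.16 (R 4.3.3, limma 3.58.1), by quasi-likelihood with 1 mean per group over all 18 libraries (12 residual degrees of freedom, common biological coefficient of variation 6.90%). Tests were two-sided, adjusted by Benjamini-Hochberg over 14870 genes and called at an adjusted p under 0.05. CPM are TMM-scaled, given per library or as mean ± SD of 3, and ± after a log2 fold change is its SE. The alternatives were other size factors, DESeq2 1.42.0, limma on log2(FPKM + 1) and log2(FPKM + 0.1), no filter, a length correction, a replicate block, only the 6 libraries of an experiment, and leaving out libraries. Alternatives for the control levels and for pathway-list genes were added after seeing the data. In fits that leave out 1 library of a group, the spread is shared with the other groups.

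On simulated counts the test recovered 32%, 28% and 32% of genes changed 1.25-fold for sORF6, sORF7 and sORF8, 64%, 62% and 62% at 1.5-fold and 84%, 80% and 82% at 2-fold. The members, gene lists and tests were chosen with earlier results of these data known. Named genes were all 10 members and, from each pathway list, up to 2 called genes with the smallest p per direction and comparison; Il1a, Il18 and Tlr7 were named beyond that rule after their values were seen. Cd40lg and Rnf11 were listed and not analysed here. Of the replicate-number pairs, 2 of 9 had correlated deviations above 0.1, so numbers were not taken to pair libraries.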

Additional observations from a re-analysis of the deposited data

Results flagged for a closer look

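Each of the following was singled out because a test of the difference itself found that the log2 response of a gene differed between 2 of the sORF experiments. Between sORF6 and sORF7 (sORF6 minus sORF7), these were Nfkb2 at -0.32, Relb at -0.54, Nfkbia at -0.67, Nfkbiz at -0.99, Tnfaip3 at -0.93 and Birc3 at -0.94. Between sORF6 and sORF8 (sORF6 minus sORF8), these were Nfkb1 at -0.27, Nfkb2 at -0.29, Nfkbia at -0.76, Nfkbiz at -0.50, Tnfaip3 at -0.69 and Birc3 at -0.89. Between sORF7 and sORF8 (sORF7 minus sORF8), Nfkb1 stood at -0.29 and Nfkbiz at 0.49. Nfkb1, Nfkb2 and Nfkbiz are also the members whose level was called different across the control viruses. The sORF8 control libraries had the lowest Nfkb1 and Nfkb2 and the highest Nfkbiz of the 3 control groups. The part of that starting level in their differences was not tested.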

How the results depend on the processing

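No call of the 10 genes, or of the list genes that the naming rule chose, reversed under any alternative; other called list genes were not refitted. The count of members called lower with sORF6 was 5 and became 3 in a fit of only the 6 libraries of the experiment; leaving out 1 library gave 3 to 6. The fall of Nfkbia, Nfkbiz and Tnfaip3 with sORF6 was called in every alternative fit, with adjusted p of at most 0.00387, 0.000677 and 0.00231. The count called higher with sORF7 was 3 and became 1 with only the 6 libraries; leaving out 1 library gave 1 to 3. The count called higher with sORF8 was 1 and became 2 with the length correction and 2 without the 2 control libraries that stood apart by chi-square. Leaving out 1 library gave 0 to 1. With a replicate block the sORF7 count was 1, since Relb (adjusted p = 0.0651) and Tnfaip3 (0.0561) were no longer called; it also ended the calls of Nfkb2 and Birc3 between sORF6 and sORF8 (0.0632 and 0.0677), of Bcl3, Tnfrsf1a, Irak3 and Vcam1 with sORF7 and of Tnfrsf1a with sORF8. Only the 6 libraries also left Ripk2 (sORF6), Tnfrsf1a, Il1b, Peli1, Irak3 and Vcam1 (sORF7) uncalled. The numbers gave only a hint of pairing, with 6 of 9 sORF libraries correlating best with the control of their own number and correlations of -0.02 to 0.18. The count of members called across control viruses was 3, and 2 to 4 in its alternatives. Of 2480 alternative values for single genes, 2350 stayed on the same side of the threshold, 125 lost a call and 5 gained one. These values include results that were not called at first and so could not lose a call. Of 56 called results, 38 kept the call in every fit that left out 1 library, and 18 lost it in some. Low counts limit the precision of Birc3 and of the ligands. The cause of these changes was not tested. The smaller fits hold fewer samples, and some calls also ended without a library outside the comparison.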

Other observations

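The genes whose levels ran most like those of 2 members were listed over 12502 genes and all 18 libraries, as Pearson correlations of log2 CPM. These points share libraries, scaling and group structure, so the values are descriptions. For Nfkbia the closest were Lcn2 (0.958), Cxcl1 (0.957), Ccl3 (0.949), Cxcl16 (0.945) and Nos2 (0.944): 3 chemokine genes, lipocalin-2 and the inducible nitric oxide synthase. For Nfkb2 they were Paqr4 (0.942), Irf9 (0.942), Apol9a (0.942), Mov10 (0.941) and Tor3a (0.939), among which Irf9 encodes a subunit of the interferon-activated factor ISGF3. Among the members themselves, the closest pairs were Nfkb2 with Relb (0.892), Nfkbia with Birc3 (0.853) and Nfkbia with Tnfaip3 (0.838), while Nfkb1 with Nfkbiz stood at -0.714.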
